A study of Mus musculus with 6 samples.

Results

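The stem cell heptad is a set of 7 transcription factors, *Tal1*, *Lyl1*, *Lmo2*, *Gata2*, *Runx1*, *Erg* and *Fli1*. These 7 of the 38293 genes in the count tables were found by matching each symbol to its Ensembl identifier, and all 7 passed the filter on low counts. RNA was sequenced from hematopoietic progenitors of the fetal liver (FL), the lineage-negative, c-Kit-positive (Lin-cKit+) fraction sorted at E14.5. Control embryos were compared with embryos deficient in hnRNP L, an RNA binding protein that regulates splicing. The 3 hnRNP L deficient embryos were VavCre+ hnRNP L fl/fl, in which the Vav promoter drives Cre and the floxed alleles are deleted in blood cells. The 3 control embryos, termed wt, are labelled as wild type for hnRNP L, and the study describes the wt libraries of this cell population as L fl/fl. Each library came from 1 embryo of the C57BL/6 background.

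The heptad factors bind together at many enhancers of blood stem and progenitor cells. TAL1 and LYL1 are basic helix-loop-helix (bHLH) proteins that bind E-boxes in pairs with E proteins, and LMO2 is a LIM-domain protein that binds no DNA itself but bridges the bHLH pair to a GATA factor with the help of LDB1. GATA2 is the zinc finger GATA factor of early progenitors and is exchanged for GATA1 during erythroid maturation, RUNX1 binds DNA with its partner CBFB, and ERG and FLI1 belong to the ETS family and are also made by endothelial cells.

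Between 55952160 and 76157226 reads were counted on genes per library. Levels are given in CPM, reads set to a common library total after TMM scaling. *Hnrnpl*, the deleted gene, was at 552, 531 and 528 CPM in wt replicates 1 to 3. It was at 242, 288 and 270 CPM in the deficient replicates 1 to 3, so that all deficient libraries carried less of it without losing it. The study raises the possibility that cells with incomplete deletion remained, which was not tested here. The library of wt replicate 2 stood apart from the other wt libraries in myeloid genes. The 8 myeloid markers summed to 8060 CPM in it, compared to 597 and 1514 CPM in wt replicates 1 and 3 and to between 245 and 812 CPM in the deficient libraries. Values without this library are given below for the members, the named list genes and the list medians. Since RNA was taken from bulk cells, fewer cells expressing a gene and less of its RNA per cell cannot be told apart.

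The 7 genes lie on 6 chromosomes (GRCm38, GENCODE M21 annotation), with *Runx1* (chr16:92601466-92826149, minus strand) and *Erg* (chr16:95359169-95586593, minus strand) on the same one. *Tal1* lies at chr4:115056426-115071755, *Lyl1* at chr8:84701457-84704715, *Lmo2* at chr2:103957986-103981878 and *Gata2* at chr6:88193891-88207032, each on the plus strand, and *Fli1* lies at chr9:32422204-32542861 on the minus strand. Exons of *Runx1* share 106 bases with the antisense gene *Gm26626* and those of *Lyl1* share 4 bases with *Nfix* on the opposite strand. The libraries were stranded, but the strand setting of the counting was not given in the sources used here.

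The promoters of *Runx1* and *Erg* are shown because reads at the 5′ exons of both genes are described below. The sequences are from RefSeq (GRCm38.p6), run 5′ to 3′ on the minus strand, and span 250 bases before to 50 bases after a transcript start. Capitals mark matches on either strand to an E-box (CANNTG), a GATA motif (GATAA), an ETS motif (GGAAGT) or a RUNX motif (TGTGGT), and in these windows no matches to different motifs overlapped.

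Runx1 distal promoter, chr16:92826025-92826324: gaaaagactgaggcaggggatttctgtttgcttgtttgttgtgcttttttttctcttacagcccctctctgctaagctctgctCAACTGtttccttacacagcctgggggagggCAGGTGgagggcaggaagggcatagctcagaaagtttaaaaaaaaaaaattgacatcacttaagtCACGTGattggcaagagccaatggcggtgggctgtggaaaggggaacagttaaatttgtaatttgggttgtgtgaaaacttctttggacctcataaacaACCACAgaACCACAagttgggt

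Runx1 proximal promoter, chr16:92697280-92697579: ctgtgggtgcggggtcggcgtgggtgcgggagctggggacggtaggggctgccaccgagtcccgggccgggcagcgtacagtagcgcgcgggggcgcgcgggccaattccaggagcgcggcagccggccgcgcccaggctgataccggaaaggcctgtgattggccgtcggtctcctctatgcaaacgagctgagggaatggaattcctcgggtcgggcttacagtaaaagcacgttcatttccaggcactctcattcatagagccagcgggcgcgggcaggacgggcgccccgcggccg

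Erg promoter at the first exons with reads, chr16:95459299-95459598: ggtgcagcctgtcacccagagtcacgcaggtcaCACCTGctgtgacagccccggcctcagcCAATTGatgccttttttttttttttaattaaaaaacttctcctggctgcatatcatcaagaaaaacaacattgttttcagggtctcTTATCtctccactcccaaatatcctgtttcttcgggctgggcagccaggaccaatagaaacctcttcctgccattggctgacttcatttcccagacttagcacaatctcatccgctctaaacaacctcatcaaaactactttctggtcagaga

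The distal *Runx1* promoter held 3 E-boxes and 2 RUNX motifs, which stand close to its 3′ end, whereas the proximal one held none of the 4 motifs. The *Erg* window held 2 E-boxes and 1 GATA motif. RefSeq promoters were found for 5 of the 7 members, with *Lmo2* and *Fli1* unmatched, and of these 10 windows 5 held an E-box, 2 a GATA motif, 1 a RUNX motif and 0 an ETS motif. Among all 32851 promoters of this length, 72.3% held an E-box, 25.4% a GATA motif, 16.8% a RUNX motif and 23.8% an ETS motif, so that E-boxes are common in any such window. These are matches of letters and not evidence of binding.

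hnRNP L binds CA-rich RNA, and therefore the hexamer CACACA was counted in the longest coding transcript of each member. *Runx1* held 21 matches in 5861 bases and *Erg* 15 matches in 3249 bases, counting overlapping matches. The matches of *Runx1* fell into 5 separate runs, the longest of 31 bases, and those of *Erg* into 3 runs, the longest of 29 bases. *Tal1* held 2 matches, *Lyl1* 1, and *Lmo2*, *Gata2* and *Fli1* held 0. Of 12487 tested genes with a coding transcript, 63.8% held at least 1 match, and 4.69% held 10 or more. These counts are a description of the 7 transcripts.

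To compare the members with each other, their CPM were divided by the merged exon length in kilobases. In wt libraries *Lmo2* was the highest, with 154 ± 8.77 CPM per kilobase (mean ± SD, n = 3), followed by *Tal1* with 76.2 ± 14.9 and *Lyl1* with 65.7 ± 6.76. The other 4 members formed a low tier, with 11.8 ± 4.56 for *Gata2*, 8.06 ± 5.39 for *Fli1*, 7.63 ± 1.46 for *Runx1* and 6.62 ± 2.94 for *Erg*. *Lmo2* was above *Tal1* and *Lyl1* above *Gata2* in every wt library, whereas the ranges of *Tal1* and *Lyl1*, of *Gata2* and *Fli1*, of *Fli1* and *Runx1* and of *Runx1* and *Erg* overlapped.

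In hnRNP L deficient libraries the upper tier was at 159 ± 4.93 for *Lmo2*, 93.6 ± 2.52 for *Tal1* and 71.9 ± 2.92 for *Lyl1* CPM per kilobase. The low tier was at 7.49 ± 0.693 for *Gata2*, 3.96 ± 0.309 for *Runx1*, 3.02 ± 0.364 for *Fli1* and 1.998 ± 0.227 for *Erg*. No neighbours in this order overlapped among the deficient embryos. The ratio between the mean levels of *Lyl1* and *Gata2*, the step between the tiers, was 5.56 in wt and 9.59 in deficient libraries. With the length of the longest coding transcript in place of merged exons, the wt level of *Runx1* was 15.6 and that of *Gata2* 17.8 CPM per kilobase. *Runx1* was then above *Fli1* (8.47) in the wt means. The step between the tiers was smaller, since *Lyl1* stayed at 65.7 in wt and 71.9 in deficient libraries, where *Gata2* was at 11.3.

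**Figure D1:**
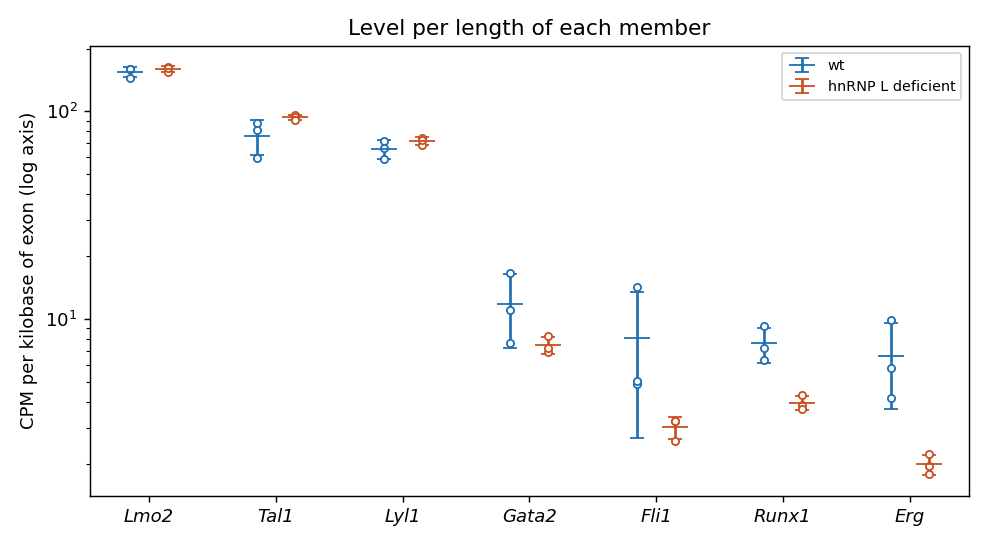
CPM per kilobase of merged exon (log axis) of each member in wt (blue) and hnRNP L deficient (orange) libraries. Open points are single embryos, bars the mean and error bars the SD of 3 embryos. *Lmo2*, *Tal1* and *Lyl1* lie between 58.6 and 163 in all 6 libraries and the other 4 members between 1.79 and 16.7.

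Differential expression was tested across all 14396 genes that passed the filter, with edgeR's quasi-likelihood test and Benjamini-Hochberg adjustment. Of the 7 members, 2 fell at an adjusted p-value under 0.05 in hnRNP L deficient progenitors (*Runx1* and *Erg*), beside 9.85% of all tested genes that fell. By this test 0 members rose, beside 9.32% of all genes, and 0 rose at an unadjusted p under 0.05, with DESeq2 or with limma-voom. DESeq2 called 2064 and limma-voom 2576 of the 14396 genes higher. The shares of all genes that were higher at an unadjusted p under 0.05, or in every deficient library, are not given. Such results for higher genes, here and below, therefore have no background to be read against. At an unadjusted p under 0.05, 4 members were lower, beside 20.1% of all tested genes. Every deficient library was below every wt library for 3 members, *Runx1*, *Erg* and *Fli1*, beside 22.7% of all tested genes. The median log2 fold change of the 7 members was -0.66, and -0.32 without wt replicate 2, while that of all tested genes was -0.026.

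**Figure D2:**
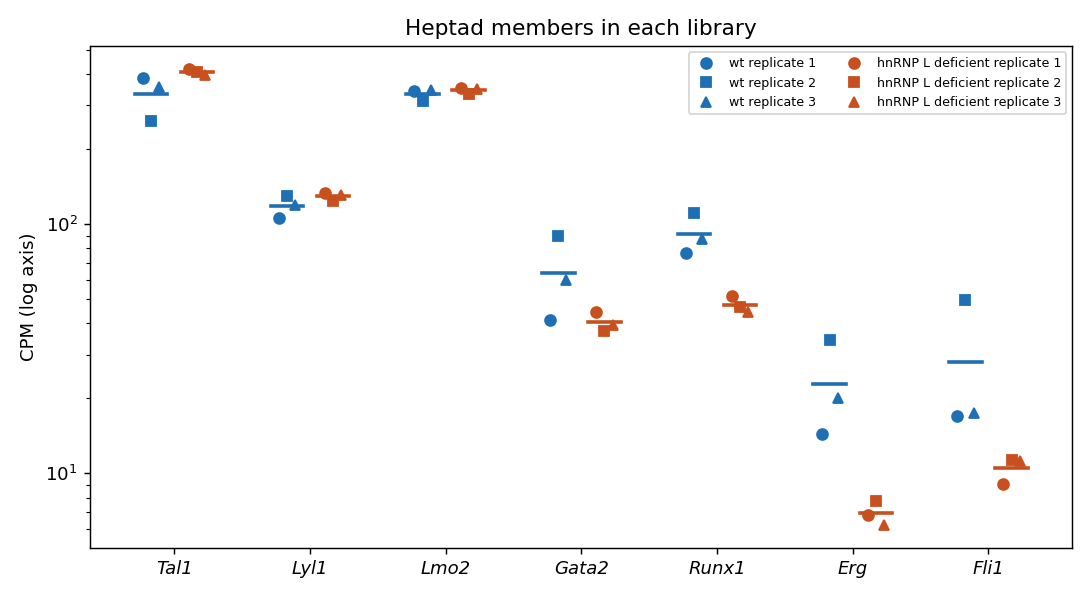
CPM (log axis) of the 7 members in each of the 6 libraries, with wt in blue, hnRNP L deficient in orange, one symbol per replicate number, and bars for the group means. The groups overlap for *Lyl1*, *Lmo2* and *Gata2*. Wt replicate 2 (blue square) is the highest wt library for *Lyl1*, *Gata2*, *Runx1*, *Erg* and *Fli1* and the lowest for *Tal1* and *Lmo2*.

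*Tal1*, the bHLH factor required to form any blood cells, was at 385, 260 and 355 CPM in wt replicates 1 to 3 and at 421, 410 and 399 CPM in the deficient replicates 1 to 3. The groups did not overlap, with all deficient libraries higher. The log2 fold change of 0.30 ± 0.14 (SE) did not pass the test (adjusted p = 0.176, edgeR). It was 0.15 with an adjusted p of 0.181 in edgeR when wt replicate 2, the lowest library, was left out.

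*Lyl1*, the close relative of *Tal1* that can partly take its place in adult stem cells, was at 106, 130 and 120 CPM in wt and at 134, 123 and 131 CPM in deficient libraries. The groups overlapped, and the log2 fold change was 0.13 with a 95% interval from -0.085 to 0.34 (adjusted p = 0.334, edgeR). Without wt replicate 2 it was 0.20 (unadjusted p = 0.0277, adjusted p = 0.0860, edgeR) and did not pass the test. *Lmo2*, the bridge of the complex, was at 344, 312 and 346 CPM in wt and at 353, 333 and 349 CPM in deficient libraries. Its log2 fold change of 0.046 had an interval from -0.13 to 0.23 (adjusted p = 0.691, edgeR). The sign of this change turned when only total counts were used for scaling (-0.024). Without wt replicate 2 the log2 fold change of *Lmo2* was 0.00050 (adjusted p = 0.997, edgeR). The intervals of *Lyl1* and *Lmo2* were the narrowest among the 7 members.

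*Gata2* was at 41.3, 90.1 and 59.9 CPM in wt and at 44.6, 37.4 and 39.3 CPM in deficient libraries. The wt libraries spread more widely than the difference between groups, since wt replicate 1 lay below deficient replicate 1 and wt replicate 2 was far above all others. The log2 fold change was -0.66 ± 0.27 (adjusted p = 0.128, edgeR). It was -0.32 without wt replicate 2 (adjusted p = 0.172, edgeR). DESeq2 gave -0.64 with an adjusted p of 0.0385, and it called 15.5% of all tested genes lower. With DESeq2 and with limma-voom 4 members fell (*Gata2*, *Runx1*, *Erg* and *Fli1*), and limma-voom called 19.3% of all tested genes lower.

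*Runx1*, the Runt factor needed for the emergence of blood stem cells, was at 76.7, 111 and 87.4 CPM in wt and at 51.8, 46.5 and 44.6 CPM in deficient libraries. The groups did not overlap, and the deficient embryos lay close together. *Runx1* fell by 0.95 on the log2 scale (SE 0.14, adjusted p = 0.0142, edgeR), to 0.519 of the wt level. It fell by 0.79 with an adjusted p of 0.00418 in edgeR when wt replicate 2 was left out.

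*Erg*, the ETS factor that maintains stem cells, showed the largest difference among the 7 members. It was at 14.4, 34.2 and 20.1 CPM in wt and at 6.79, 7.77 and 6.22 CPM in deficient libraries, so that the lowest wt embryo still had more than the highest deficient embryo. *Erg* fell by 1.73 on the log2 scale (SE 0.31, adjusted p = 0.0179, edgeR), to 0.302 of the wt level. Leaving out wt replicate 2, it fell by 1.32 with an adjusted p of 0.00550 in edgeR.

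*Fli1*, the other ETS member, was at 17.03, 49.8 and 17.5 CPM in wt and at 9.05, 11.3 and 11.2 CPM in deficient libraries. All deficient libraries were below all wt libraries, but wt replicate 2 was far above the other wt embryos. The log2 fold change of -1.42 ± 0.45 did not pass the test (adjusted p = 0.0709, edgeR). Without wt replicate 2 the difference was smaller, at -0.71 ± 0.13, and passed it (adjusted p = 0.0122, edgeR). In that fit 3 members fell, *Runx1*, *Erg* and *Fli1*, beside 12.7% of all tested genes.

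**Figure D3:**
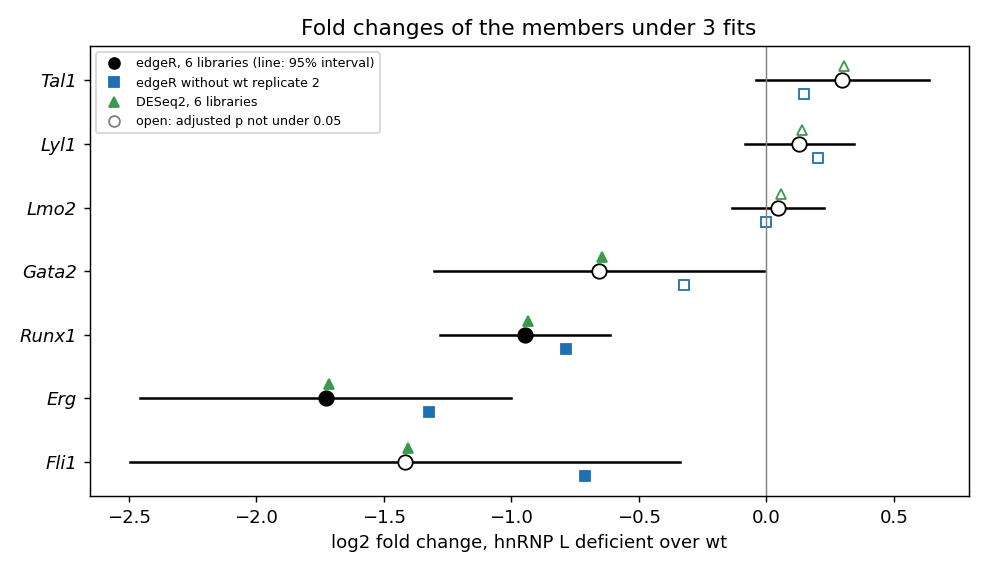
Log2 fold change of each member, hnRNP L deficient over wt, from edgeR on 6 libraries (black circles, lines for the 95% interval), edgeR without wt replicate 2 (blue squares) and DESeq2 on 6 libraries (green triangles), with filled symbols for an adjusted p under 0.05. *Runx1* and *Erg* are filled in all 3 fits, *Fli1* in 2 and *Gata2* with DESeq2 only.

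The calls depended on which libraries were included. With wt replicate 1 left out 4 members fell in edgeR, beside 2479 of 14766 tested genes that fell. With wt replicate 2 left out 3 members fell, beside 1855 of 14651, compared to 2 members and 1418 of 14396 genes with all 6 libraries. In either direction these 3 fits called 4791, 3527 and 2759 genes. When wt replicate 3 or any 1 of the deficient libraries was left out, 0 of the 7 members passed edgeR's test, and only 5 to 17 of all genes did. At an unadjusted p under 0.05, 2 or 3 members were lower in these fits. The share of all genes at that threshold is not given for them, so these counts have no background to be read against. *Runx1* kept a log2 fold change between -1.05 and -0.79 over all 6 fits with 1 library left out, and *Erg* one between -1.97 and -1.32.

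Ratios between related factors within a library do not depend on the scaling. The log2 ratio of *Gata1* to *Gata2*, the exchange partners of erythroid maturation, was 2.60, 1.01 and 2.05 in wt and 2.83, 2.99 and 2.92 in deficient libraries. It was higher in every deficient embryo, by 1.03 on average and by 0.59 without wt replicate 2 (6 libraries, exact permutation test, 2-sided, p = 0.1, the smallest that 3 against 3 embryos allow). The log2 ratio of *Runx1* to its partner *Cbfb* was 0.47, 0.37 and 0.69 in wt and -0.20, -0.19 and -0.35 in deficient libraries, again without overlap (difference -0.76, exact permutation p = 0.1). After Benjamini-Hochberg adjustment over the 4 ratios computed, both p-values were 0.2. The ratios of *Erg* to *Fli1* (difference -0.40, exact permutation p = 0.3) and of *Tal1* to *Lyl1* (0.18, exact permutation p = 0.7) overlapped between the groups.

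Exon bins, the non-overlapping exon pieces on which reads were also counted, were analysed in 5 libraries, from all 3 wt embryos and from deficient replicates 2 and 3. The files number the bins without coordinates, and on the minus strand the numbers ran upwards with position. This was judged from 1355 minus-strand genes, in 91.8% of which reads followed the lengths of the annotated pieces better in that order. For *Runx1*, *Erg* and *Fli1* the 5′ end is therefore at the highest bin number. Of 83 member bins 76 reached 10 reads on average and were tested for a change in usage relative to the rest of the gene.

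With edgeR's diffSpliceDGE, 0 of these 76 bins had an adjusted p under 0.05, beside 0.0288% of 176996 tested bins, and 2 had an unadjusted p under 0.05, beside 1.02% of all. With limma's diffSplice 0 bins passed after adjustment, and 3 had an unadjusted p under 0.05, beside 2.68% of all. The 2 bins with diffSpliceDGE were *Runx1* bin 8 and *Lmo2* bin 21. The 3 with diffSplice were *Runx1* bin 1, *Lmo2* bin 19 and *Lmo2* bin 21, without *Runx1* bin 8. With diffSpliceDGE *Runx1* bin 8 kept an unadjusted p under 0.05 without wt replicate 1 and with a minimum of 50 reads. It did not without wt replicate 2 or without wt replicate 3. *Lmo2* bin 21 was sparse, with 13, 5 and 6 reads in wt replicates 1 to 3 and 31 and 29 reads in deficient replicates 2 and 3 (log2 change in usage 1.63, adjusted p = 1.00, edgeR).

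*Runx1* bins 8 and 9 are its most 5′ bins and, by their order, belong to the distal start whose promoter is printed above. Bin 8 was at 2.34, 1.62 and 1.64 CPM in wt and at 1.73 and 1.43 CPM in deficient libraries, and the groups overlapped. Its usage was higher by 0.73 on the log2 scale (adjusted p = 1.00, edgeR), which did not pass the test. Bin 7, by its order at the proximal start, was at 4.53, 8.25 and 5.17 CPM in wt and at 2.43 and 2.63 CPM in deficient libraries, below every wt library.

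The deficient mean was thus at 84.7% of the wt mean in bin 8 and 80.3% in bin 9, compared to 42.2% in bin 7 and 44.2% in bin 1 at the 3′ end, where most reads lie. Bins 2 to 6 lay between these values, at 59.1% to 70.5%, so that the bins showed a graded spread. The reads of bins 8 and 9 together, divided by those of bin 7, gave 1.02, 0.359 and 0.507 in wt and 1.30 and 0.939 in deficient libraries. Here wt replicate 1 lay above deficient replicate 3, so the groups overlapped.

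In *Erg* the bins 18 to 22 at the 5′ end had 0 reads in all 5 libraries. Reads began at bins 15 to 17, which by their order belong to the start near the printed *Erg* window, and the starts further upstream were not detected at this depth, with a limit of 3 reads per library. Bin 15, the *Erg* bin with the smallest p, had 19, 16 and 46 reads in wt and 20 and 24 in deficient libraries (log2 change in usage 1.28, adjusted p = 1.00, edgeR). The deficient mean was at 73.5% of the wt mean in bin 15, and the median over the 16 tested *Erg* bins was 28.8%.

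The 9 bins of *Fli1* were all lower in the deficient mean, at between 34.4% and 49.6% of wt, and bin 3, with the smallest p of this gene, changed in usage by 0.34 on the log2 scale (adjusted p = 1.00, edgeR). In all of these bins wt replicate 2 was the highest wt library and raised the wt mean. Bin 1 was at 6.83, 22.4 and 6.60 CPM in wt and at 4.27 and 4.29 CPM in deficient libraries. The bin percentages of all members include wt replicate 2 and are not given without it. The 7 *Gata2* bins were at 50.9% to 76.5% of wt (bin 2 with the smallest p, log2 change in usage 0.40, adjusted p = 1.00, edgeR). The 4 *Lyl1* bins were at 105% to 113% of wt (bin 1 with the smallest p, -0.057, adjusted p = 1.00, edgeR). *Tal1* bins 2 and 3, near its 5′ end, were at 73.3% and 68.3% of wt while the median over its 10 tested bins was 122% (bin 3 with the smallest p, log2 change in usage -0.78, adjusted p = 1.00, edgeR). The change of bin 3 was -0.97 with an adjusted p of 0.174 in edgeR when wt replicate 2 was left out.

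**Figure D4:**
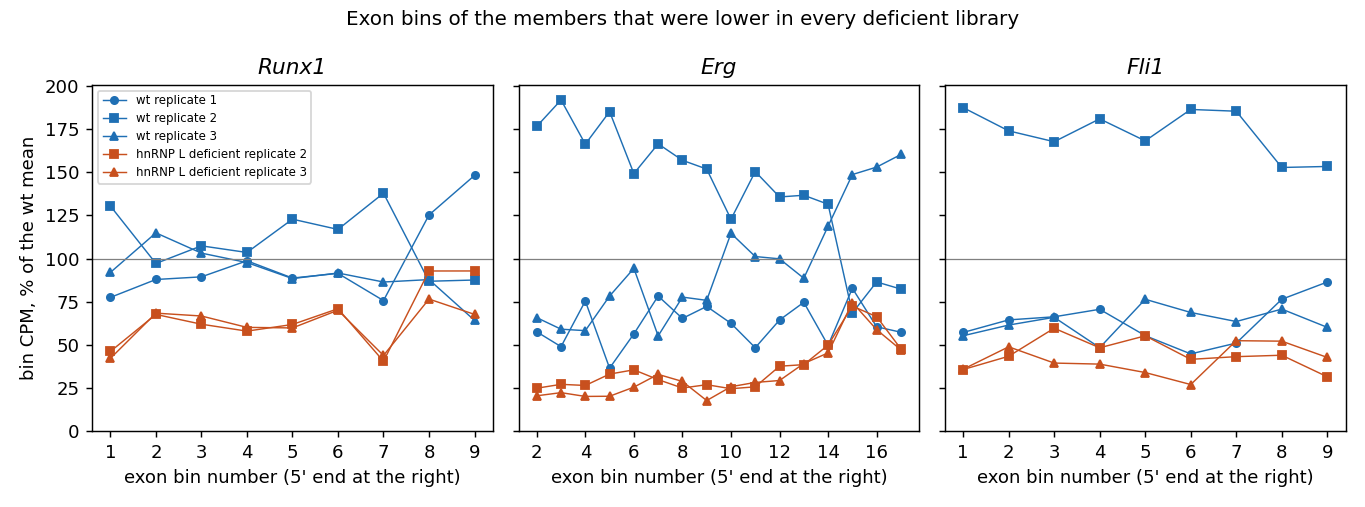
Read level in each tested exon bin of *Runx1*, *Erg* and *Fli1*, as CPM in percent of the wt mean of that bin, for 3 wt (blue) and 2 hnRNP L deficient (orange) libraries, with bin numbers on the x axis and the 5′ end at the right. In *Runx1* the deficient libraries approach the wt libraries at bins 8 and 9, and in *Erg* at bins 15 and 16.

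Genes that work with the heptad were examined from lists of complex partners, paralogs and known targets. Among 15 complex partners, 2 fell and 0 rose by edgeR's test, beside 9.85% and 9.32% of all tested genes. At an unadjusted p under 0.05, 3 were lower, beside 20.1% of all tested genes, and 0 higher. DESeq2 called 2 lower, beside 15.5% of all tested genes, and limma-voom 5, beside 19.3%, and each called 0 higher. *Tcf4*, an E protein that pairs with TAL1 and LYL1, was at 54.3, 48.0 and 52.4 CPM in wt and at 41.3, 41.3 and 40.6 CPM in deficient libraries (log2 fold change -0.33, adjusted p = 0.0292, edgeR). *Id3*, an inhibitor that captures E proteins, was at 1.49, 4.94 and 2.16 CPM in wt and at 0.404, 0.627 and 0.402 CPM in deficient libraries (log2 fold change -2.58, adjusted p = 0.0211, edgeR).

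Both groups of embryos were separate for these 2 genes, which act in opposite ways on E protein pairing. The adaptor *Ldb1* (log2 fold change -0.13, adjusted p = 0.424), the E protein *Tcf3* (0.078, adjusted p = 0.716) and *Cbfb* (-0.20, adjusted p = 0.441, edgeR) overlapped between the groups. The median log2 fold change of the 15 partners was -0.16. When wt replicate 2 was left out it was -0.075, and 4 partners fell, beside 12.7% of all tested genes. In that fit *Tcf4* was at -0.38 and *Id3* at -1.94.

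Of 11 paralogs 8 were tested, since *Tal2*, *Lmo3* and *Fev* were too low. By edgeR's test 2 fell and 0 rose, beside 9.85% and 9.32% of all tested genes. At an unadjusted p under 0.05, 4 were lower, beside 20.1% of all tested genes, and 2 higher. The share of all genes that were higher at that threshold is not given. DESeq2 and limma-voom each called 4 lower, beside 15.5% and 19.3% of all tested genes. Each called 1 higher, beside 2064 and 2576 of 14396 tested genes. *Lmo1*, a LIM protein related to *Lmo2*, was at 1.08, 4.90 and 1.91 CPM in wt and at 0.559, 0.490 and 0.589 CPM in deficient libraries (log2 fold change -2.26, adjusted p = 0.0344, edgeR). *Runx2*, the Runt factor of bone formation, was at 8.68, 33.3 and 14.02 CPM in wt and at 2.27, 4.53 and 4.06 CPM in deficient libraries (-2.37, adjusted p = 0.0335, edgeR).

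*Gata1*, the erythroid GATA factor, was at 251, 181 and 248 CPM in wt and at 318, 299 and 298 CPM in deficient libraries. All deficient libraries were higher, but the log2 fold change of 0.43 did not pass the test (adjusted p = 0.0601, edgeR). When wt replicate 2 was left out it was 0.29 and passed (adjusted p = 0.0199, edgeR), and *Gata1* was the 1 paralog that rose. Of all 14651 genes tested in that fit, 1672 rose. In that fit 3 paralogs fell, beside 12.7% of all tested genes, with *Lmo1* at -1.45 and *Runx2* at -1.65. The median of the tested paralogs was -0.20 compared to -1.0 with all libraries.

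Among 15 known targets 5 fell and 0 rose by edgeR's test, with 6 lower and 0 higher at an unadjusted p under 0.05 and also with DESeq2 and with limma-voom. Of all tested genes 9.85% fell by edgeR's test, and 20.1% were lower at an unadjusted p under 0.05. DESeq2 called 15.5% and limma-voom 19.3% of them lower. *Cd34*, a surface protein of progenitors and endothelium, was at 94.8, 234 and 123 CPM in wt and at 28.5, 35.04 and 34.04 CPM in deficient libraries (log2 fold change -2.21, adjusted p = 0.0171, edgeR). *Kit*, which encodes the receptor used for the sort, was at 423, 488 and 656 CPM in wt and at 368, 325 and 330 CPM in deficient libraries (-0.62, adjusted p = 0.0402, edgeR).

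*Csf1r*, the receptor for the macrophage growth factor, fell by 3.24 on the log2 scale (adjusted p = 0.0389, edgeR) and *Smad6*, an inhibitor of BMP signalling, by 1.37 (adjusted p = 0.0409, edgeR). *Csf1r* is also among the myeloid markers that stood apart in wt replicate 2, at 69.3 CPM there compared to 11.3 and 27.6 CPM in the other wt libraries and 2.08 to 4.80 CPM in deficient libraries. The median log2 fold change of the 15 targets was -0.62, and -0.28 without wt replicate 2, where 4 fell, beside 12.7% of all tested genes. In that fit *Cd34* was at -1.74, *Kit* at -0.66 and *Csf1r* at -2.35, and *Smad6* at -1.0 no longer passed (adjusted p = 0.0539, edgeR).

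**Figure D5:**
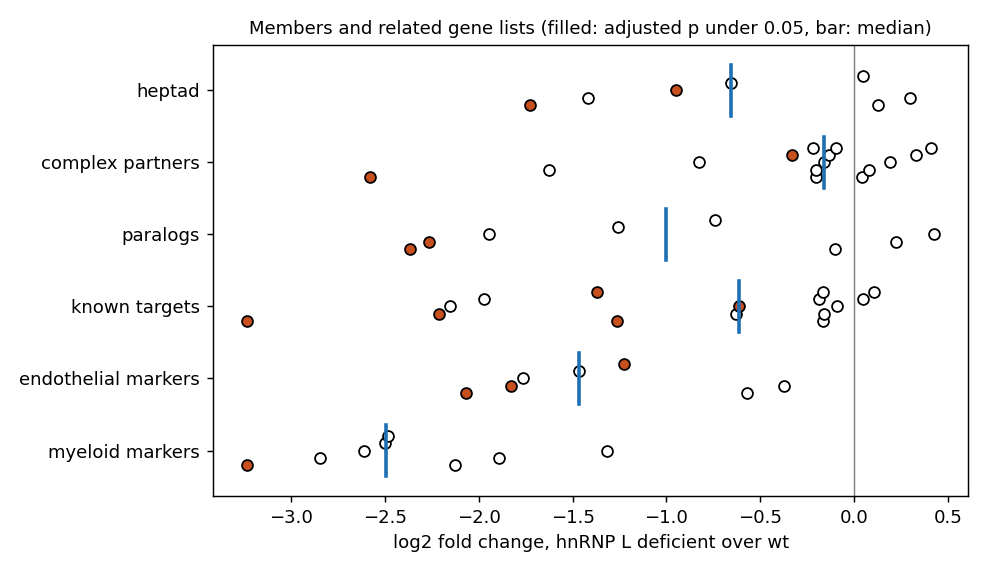
Log2 fold change (hnRNP L deficient over wt, edgeR, 6 libraries) of each tested gene of the heptad, its complex partners, paralogs and known targets and of endothelial and myeloid markers, with filled points for an adjusted p under 0.05 and blue bars for list medians. Filled points are all left of 0, and the bars lie at -0.66, -0.16, -1.0, -0.62, -1.47 and -2.49. Without wt replicate 2 the same medians were -0.32, -0.075, -0.20, -0.28, -1.42 and -0.40.

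Marker lists named by cell type were compared between the groups in the same way. Of all tested genes, 22.7% were lower in every deficient library and 9.85% fell by edgeR's test. The 8 endothelial markers summed to between 34.98 and 81.2 CPM in wt and between 18.8 and 21.8 CPM in deficient libraries, with 5 of 8 lower in every deficient library and 3 that fell by edgeR's test (*Tie1*, *Emcn* and *Pecam1*). *Pecam1* averaged 25.1 CPM in wt and 5.99 CPM in deficient libraries, and *Cdh5* 0.889 and 0.320 CPM, while *Cldn5* was at most 0.134 CPM in any library. The 8 hepatocyte markers summed to between 116 and 245 CPM in wt and between 22.1 and 75.0 CPM in deficient libraries, with 8 of 8 lower throughout and 2 that fell. Of 8 myeloid markers 2 were lower throughout, 1 of which fell, and the median log2 fold change of this list was -2.49, or -0.40 without wt replicate 2. Whether endothelial, hepatocyte or myeloid cells had a part in the results for *Runx1*, *Erg*, *Fli1* and *Gata2* was not tested.

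Of 8 stem cell markers 4 fell by edgeR's test, beside 9.85% of all tested genes, and the other 4 did not pass it. Those that fell were *Hlf*, *Mycn*, *Hoxa9* and *Flt3*, the last also made by progenitors without stem cell activity. Among those that did not pass, *Slamf1*, which encodes CD150, was higher in every deficient library (log2 fold change 0.54, adjusted p = 0.198, edgeR), and *Procr* was at 0.46 (adjusted p = 0.513, edgeR). *Ly6a* was at -0.52 (adjusted p = 0.541, edgeR) and *Mllt3* at -0.32 (adjusted p = 0.149, edgeR). When wt replicate 2 was left out, 5 of the list fell and 0 rose, beside 12.7% of all tested genes that fell. In that fit *Mllt3* was at -0.47 and passed (adjusted p = 0.00660, edgeR). The list summed to 156 to 186 CPM in wt and 92.3 to 105 CPM in deficient libraries. The 8 erythroid markers had 1 member that fell and a median log2 fold change of 0.028, and of 7 tested megakaryocyte markers 2 fell. Of 3 tested lymphoid markers 2 fell, and of 3 tested stromal markers 1 fell. Of 7 tested mast cell and basophil markers 0 fell or rose by edgeR's test, 0 at an unadjusted p under 0.05, 1 rose with DESeq2 and 0 changed with limma-voom. DESeq2 called 2064 of all 14396 tested genes higher. The erythroid genes *Klf1* and *Tfrc* and *Kit*, the gene of the sorting marker, were detected in every library.

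Likeness between profiles was measured as the root mean square difference of centred log2 CPM over the 6 libraries, where 0 is an identical shape. Among the members, *Lyl1* and *Lmo2* were the closest pair, at 0.135, followed by *Tal1* and *Lmo2* at 0.188 and *Gata2* and *Runx1* at 0.246. *Erg* and *Fli1* were each closest to the other, at 0.325, and *Tal1* and *Erg* were the farthest apart, at 1.12. The closest member to each was in the same tier of level per kilobase. *Gata2* was nonetheless nearer to *Lyl1* (0.436) than to *Fli1* (0.454) or *Erg* (0.548). All of these distances include wt replicate 2.

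Among 8649 genes with a mean of at least 10 CPM, *Aldh18a1* was the most like *Tal1* (0.0227), *Cmtm6* the most like *Lyl1* (0.0284) and *Sepsecs* the most like *Lmo2* (0.0147). *Dok2* was the most like *Gata2* (0.0701), *Plcg1* the most like *Runx1* (0.0647), *Cd48* the most like *Erg* (0.0881) and *Tnfrsf1b* the most like *Fli1* (0.0636). *Cd48*, a surface protein of leukocytes, was at 21.5, 47.9 and 31.7 CPM in wt and at 10.9, 11.2 and 10.4 CPM in deficient libraries. These are the nearest of many genes over 6 libraries and are given as a description.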

How the data were processed

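RNA-seq of 6 libraries was analysed, 3 wt and 3 hnRNP L deficient, grouped by the genotype in the sample labels. The authors prepared stranded mRNA libraries, aligned reads to GRCm38 with TopHat2 2.0.10, used HTSeq to count them per gene and the DEXSeq script to count them per exon bin, and deposited these counts unscaled. The Ensembl release was not given in the sources used here. The submitters' labels name the source both as fetal liver and as whole embryo, and the sort is taken from the study's methods. Between 46.7% and 53.3% of the reads in the tables were assigned to no gene and were left out. For deficient replicate 1, exon bins were not analysed here.

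Counts were analysed in R 4.3.3 with edgeR 4.0.16 (TMM, default expression filter, robust quasi-likelihood test, Benjamini-Hochberg adjustment, threshold 0.05), and CPM use the TMM-scaled library size. Alternatives were DESeq2 1.42.0, limma-voom 3.58.1 with sample weights, other scalings, no filter, estimation without the robust option and each library left out. Exon bins that reached 10 reads on average entered diffSpliceDGE, with limma diffSplice and a minimum of 50 reads as alternatives. Ratios used log2 of CPM plus 0.1. Exact permutation tests were 2-sided. The steps were tested on simulated data. At this depth 3 reads correspond to at most 0.0540 CPM, and the spread between embryos limits the precision. The p-values measure the spread between single embryos.

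The members and gene lists were chosen with earlier results of these data known, so that no list is independent support. Genes named are the 7 members, listed partners, paralogs and targets with an adjusted p under 0.05, *Gata1* and *Cbfb*, the most alike gene per member, and per member the exon bins with an unadjusted p under 0.05 or else the smallest p. *Ldb1*, *Tcf3*, the markers named, *Runx1* bins 1 to 7 and 9, *Lmo2* bin 19, *Fli1* bin 1 and *Tal1* bin 2 were named after their values were seen. The alternative transcript length and the lists and their genes without wt replicate 2 were chosen after seeing the data. Some genes that the rule names are not reported here.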

Additional observations from a re-analysis of the deposited data

How the results depend on the processing

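Over the 6 fits that each left out 1 library, the log2 fold change ranged from -1.05 to -0.79 for *Runx1* (adjusted p 0.00418 to 0.0927, edgeR), from -1.97 to -1.32 for *Erg* (0.00550 to 0.101), from -1.67 to -0.71 for *Fli1* and from -0.89 to -0.32 for *Gata2*. *Runx1* and *Erg* passed the threshold in 2 of these 6 fits, without wt replicate 1 or 2, and *Fli1* in the same 2, while *Gata2* passed without wt replicate 1 only. Members that fell ranged from 0 to 4, partners from 0 to 4, paralogs from 0 to 4 and targets from 0 to 8, and paralogs that rose from 0 to 1. When wt replicate 3 or any deficient library was left out, between 5 and 17 genes of all passed. Without wt replicate 1, 2479 of all 14766 tested genes fell, and without wt replicate 2, 1855 of 14651. The cause was not tested.

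*Gata2* passed with DESeq2 (-0.64) and limma-voom (-0.58), and *Fli1* with DESeq2 (-1.40) and limma-voom (-0.83), so that 4 members fell with either tool, beside 15.5% and 19.3% of all genes. Partners that fell were 5 with limma-voom and 1 without the low-count filter, and paralogs that fell were 4 with DESeq2 or limma-voom and 1 without the filter, where 1 paralog rose, as with DESeq2 and limma-voom. Without the filter 1189 of all 20806 tested genes fell and 1354 rose. *Lmo2* turned sign with total counts only (-0.024), and the log2 ratio of *Tal1* to *Lyl1* did so without wt replicate 2 (-0.055, with a highest value of 0.38 over the libraries left out). Member exon bins at an unadjusted p under 0.05 were 1 with a minimum of 50 reads, beside 0.762% of all tested bins. They were 3 without wt replicate 1, beside 1.56%, and 3 without wt replicate 2, beside 2.51%. Without wt replicate 3 there was 1, beside 1.22%. In these fits 0 member bins passed after adjustment. Fits that left 1 deficient library are not counted here. No other scaling or estimation option changed the calls of *Runx1* and *Erg*. No paired analysis was possible because only 1 wt and 1 deficient embryo (replicate 1 of each) share the first part of their embryo number, whose meaning is not stated, and deficient replicates 2 and 3 share another. A shared litter was not tested.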
